A study of Mus musculus with 30 samples.

Results

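The genes described here are 10 immediate early genes of the mouse: Egr1, Egr2 and Egr3, which encode zinc finger transcription factors, Ier2, Ier3 and Ier5, and the Krüppel-like factors Klf2, Klf4, Klf6 and Klf10. Every probe set whose platform gene symbol was one of these names alone was taken, which gave 19 of 45265 probe sets, 16 of them on the A array and 3 on the B array. The Egr genes had 5 probe sets, the Ier genes 5 and the Klf genes 9. Of the 19, 18 passed the filter on low intensities and were tested. The exception was a probe set of Ier5 (1460009_at), whose mean intensity of 62.3 over the 15 A arrays lay below the filter of 101.

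The RNA came from cell culture of mouse extraocular muscle (EOM), the muscle that moves the eye. The array titles read cell culture, and the times were 0, 4, 12, 24 and 48 h. Each time had 3 Affymetrix A arrays and 3 B arrays, 30 arrays in all. The labels name no strain, age, medium or treatment, and they state neither what started the clock nor whether the arrays of a time held RNA of separate cultures. A p-value here thus covers the array-to-array spread alone, and that spread may be technical. The array labelled B, 0 h, replicate 1 has leg muscle as its source name and extraocular muscle in its title. It was kept under its title, and the B array changes from 0 h of Egr3, Klf6, Dusp4 and Klf3 are also given without it. In a culture, fewer cells of a type and less RNA per cell cannot be told apart.

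Immediate early genes are transcribed within minutes of a stimulus such as serum, a growth factor, stretch or injury, without new protein synthesis, and most of their transcripts are short-lived. Serum response factor, bound to CArG boxes together with Ets-type partners, switches on many of them, and kinases of the ERK, p38 and ERK5 pathways act on these factors and on Mef2 proteins. In skeletal muscle, Egr3 is known for its part in muscle spindle development, and Klf2 and Klf4 are known as targets of ERK5 and Mef2 in fusing myoblasts.

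Skeletal muscle markers were present throughout. Of 11 markers of myoblasts and myotubes, 10 lay above the A array filter, Myf5 being the exception. The summed intensity of the list was 60115 to 80090 at 0 h and 60364 to 70529 at 48 h. Of the 10, limma called 2 higher (Myh3 and Tnnt3) and 0 lower at 24 h, against 3.34% and 1.99% of all genes tested. At 48 h it called 1 higher (Tnnt3) and 1 lower (Myod1), against 3.9% and 2.22%. The sum does not show these changes. Myh13, a myosin heavy chain of extraocular muscle, was not analysed here. On the B arrays, Hoxa10, a gene of limb and trunk cells, had an intensity of 393 on the 0 h array sourced to leg muscle by its label, against 189 and 214 on the other 0 h arrays. Hoxa10 was picked after the values had been seen. Of the 4 hindlimb genes with a B array probe set it alone lay above the filter of 199.6, and that 0 h array was the highest of the 0 h arrays for 2 of the 4 and the lowest for the other 2. Each array had been scaled to the same trimmed mean, and medians were 154.7 to 181.5 (A) and 272.8 to 297.7 (B). As a sign of RNA quality, Gapdh gave 3' to 5' signal ratios of 0.762 to 0.887 (A) and 0.753 to 0.845 (B).

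The 10 genes did not move together. Egr2 and Klf10 fell and stayed low, Egr1 was below its 0 h level at every later time, and Ier2 fell at 4 h and was back near its 0 h level at 48 h. Klf4, Klf2, Klf6 and Ier5 rose at 48 h, most of all Klf4. Egr3 and Ier3 passed the test in no comparison with 0 h. Intensities of different probe sets are not comparable as levels, so changes are given within a probe set. The summed intensities of marker lists are an exception, and the brightest probe sets weigh most in them.

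**Figure D1:**
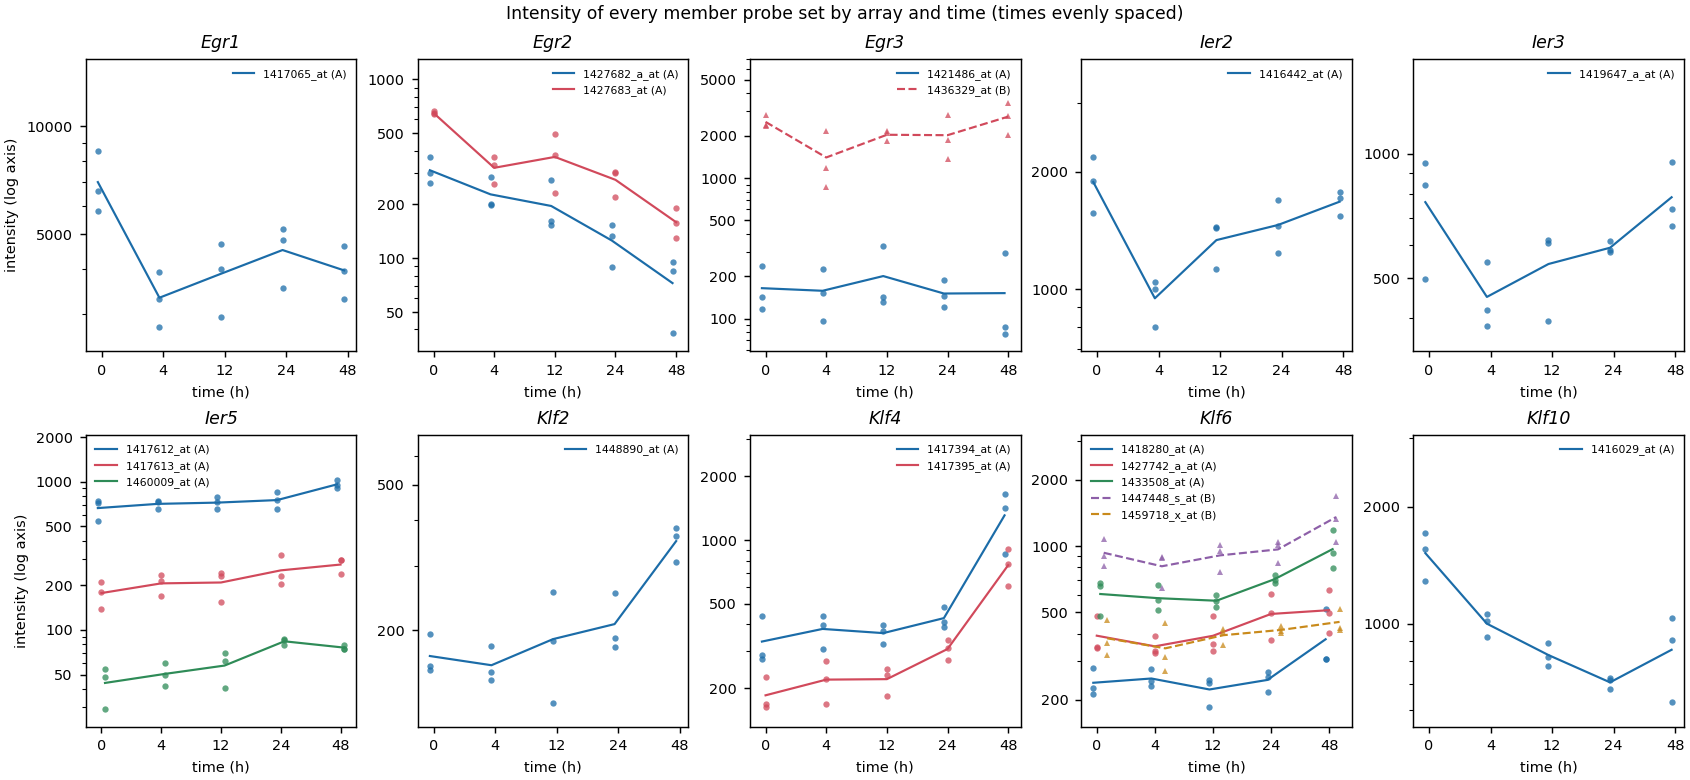
Intensity on a log axis of all 19 probe sets of the 10 genes by time in culture in hours (times evenly spaced). Points are arrays (circles A, triangles B, 3 per time), lines join the means of a probe set, and each panel has its own range. Both Egr2 probe sets fall to their lowest means at 48 h, both Klf4 probe sets are highest there, and Ier2 is lowest at 4 h.

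Egr2, a zinc finger factor best known for its part in Schwann cell myelination and hindbrain patterning, fell 3.84-fold by 48 h on the scale of intensity + 16. Its brighter probe set (1427683_at) read 662, 639 and 646 at 0 h, 332, 262 and 367 at 4 h, 497, 377 and 232 at 12 h, 303, 301 and 219 at 24 h and 157, 131 and 190 at 48 h. All 12 later arrays lay below all 3 arrays of 0 h, and every 48 h array lay below every array of the earlier times. The log2 change from 0 h was -0.996 ± 0.22 at 4 h (SE, n = 3 arrays per time, limma adjusted p = 0.315) and -0.85 ± 0.22 at 12 h (adjusted p = 0.108), neither past the threshold of 0.05. It was -1.21 ± 0.22 at 24 h (limma adjusted p = 0.00362) and -1.94 ± 0.22 at 48 h (adjusted p = 3.5e-05), and both passed.

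The dimmer Egr2 probe set (1427682_a_at) followed the same course. It read 264, 299 and 368 at 0 h, 198, 284 and 202 at 4 h, 153, 272 and 163 at 12 h, 153, 89.9 and 134 at 24 h and 95, 38.4 and 84.6 at 48 h. Its arrays of 24 h and 48 h lay below all of 0 h, while those of 4 h and 12 h overlapped them. It changed by -1.22 ± 0.28 at 24 h (limma adjusted p = 0.0160) and by -1.93 ± 0.28 at 48 h (adjusted p = 0.000324). The 24 h call of this probe set of Egr2 was lost without 0 h replicate 3 (adjusted p = 0.0660) or 24 h replicate 2 (adjusted p = 0.0895). The 48 h calls of both held in every alternative. The summed intensity of the Schwann cell markers on the A arrays, of which 2 of 3 passed the filter, was 312 to 456 at 0 h and 332 to 400 at 48 h, and its part in the Egr2 result was not tested.

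RefSeq (GRCm38.p6) gives 5 start sites for Egr2 in the promoter table used here. CArG boxes matched in 4 of these 5 windows of 300 bases, and in 1.63% of all 32851 windows. The 250 bases before a start are shown for those that hold the different matches, because Egr2 had the largest fall of the 10 genes. Capitals mark the match, which spans 72 to 63 bases before the start in each.
Egr2, chr10:67537316-67537565, plus strand: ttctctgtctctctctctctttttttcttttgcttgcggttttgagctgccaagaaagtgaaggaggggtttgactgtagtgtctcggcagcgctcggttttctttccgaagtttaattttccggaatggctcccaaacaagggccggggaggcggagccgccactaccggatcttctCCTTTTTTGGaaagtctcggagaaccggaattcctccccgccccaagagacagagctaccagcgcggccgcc
Egr2, chr10:67537619-67537868, plus strand: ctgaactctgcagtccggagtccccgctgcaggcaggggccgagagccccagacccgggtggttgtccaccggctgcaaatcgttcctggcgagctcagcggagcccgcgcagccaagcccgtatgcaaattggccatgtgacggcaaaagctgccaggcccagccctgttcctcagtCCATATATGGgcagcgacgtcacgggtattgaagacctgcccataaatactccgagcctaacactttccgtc
The windows of the remaining starts with a match hold the CArG box of the latter sequence. A match is a description of the sequence, not a bound site.

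Egr1, the most widely used marker of recent growth factor signalling among these genes, was high at 0 h and lower at all later times. Its intensity was 8567, 5803 and 6612 at 0 h, 3936, 2749 and 3297 at 4 h, 4013, 4691 and 2940 at 12 h, 4836, 5187 and 3538 at 24 h and 3296, 4640 and 3961 at 48 h. No later array reached the lowest 0 h array. The 0 h arrays themselves spread widely, replicate 1 being the highest. The log2 change was -1.06 ± 0.20 at 4 h (limma adjusted p = 0.0905), -0.85 ± 0.20 at 12 h (adjusted p = 0.0668) and -0.63 ± 0.20 at 24 h (adjusted p = 0.0754), and these did not pass.

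At 48 h Egr1 passed, with a log2 change of -0.81 ± 0.20 (limma adjusted p = 0.0188) that was smaller in size than the change at 4 h. P-values were adjusted within each comparison, so their order over the times is not an order of effect size. Leaving out 0 h replicate 1 (adjusted p = 0.110) ended the 48 h call of Egr1, as did leaving out replicate 1 (0.0956) or 3 (0.0565) of 48 h. With array weights, Egr1 also passed at 4 h (adjusted p = 0.0169), 12 h (0.0106) and 24 h (0.0254), and without 12 h replicate 3 it passed at 24 h (0.0480). From 4 to 48 h Egr1 changed by 0.25 ± 0.20 (limma adjusted p = 0.525).

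Egr3 had a dim probe set on the A array and a bright one on the B array. The A array probe set (1421486_at) had means of 165 ± 62.0 (SD, n = 3) at 0 h and 152 ± 121 at 48 h, with a 48 h change of -0.28 ± 0.42, and passed nowhere. The B array probe set (1436329_at) read 2800, 2334 and 2396 at 0 h, 870, 2161 and 1173 at 4 h, 2109, 2152 and 1837 at 12 h, 1871, 2809 and 1376 at 24 h and 3419, 2757 and 2035 at 48 h. Its arrays of 4 h and 12 h lay below those of 0 h and its 24 h and 48 h arrays overlapped them. The log2 change of Egr3 on the B array was -0.93 ± 0.29 at 4 h (95% interval -1.55 to -0.32, limma adjusted p = 0.860) and 0.10 ± 0.29 at 48 h (adjusted p = 0.959), and no comparison passed. Without the 0 h array of leg muscle source name the change of Egr3 was -0.85 (limma adjusted p = 0.953) at 4 h and 0.18 (adjusted p = 0.925) at 48 h.

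Ier2, which encodes a small nuclear protein induced by growth factors, was the only member to pass at 4 h. It read 1899, 1572 and 2183 at 0 h, 801, 998 and 1042 at 4 h, 1446, 1439 and 1124 at 12 h, 1449, 1698 and 1237 at 24 h and 1546, 1773 and 1714 at 48 h. The 4 h arrays lay below all other arrays, and the 24 h and 48 h arrays overlapped those of 0 h. The log2 change of Ier2 was -0.98 ± 0.16 at 4 h (limma adjusted p = 0.0311), -0.49 ± 0.16 at 12 h (adjusted p = 0.187), -0.36 ± 0.16 at 24 h (adjusted p = 0.209) and -0.16 ± 0.16 at 48 h (adjusted p = 0.632, 95% interval -0.49 to 0.17).

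The 4 h call of Ier2 depended on single arrays. Leaving out any array of 4 h or 48 h ended it, and so did leaving out replicate 1 or 3 of 0 h or replicate 1 of 12 h or of 24 h, with adjusted p from 0.0509 to 0.272. It held without each of the other 5 A arrays. It was also lost with median scaling, no filter, no intensity trend, the replicate block and only the times compared. Ier2 rose by 0.82 ± 0.16 from 4 to 48 h (limma adjusted p = 0.00404), a comparison added after the values had been seen.

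Ier3, a stress-inducible gene linked to cell survival, had a similar course with wider spread. It read 840, 499 and 953 at 0 h, 419, 549 and 383 at 4 h, 610, 619 and 395 at 12 h, 585, 615 and 578 at 24 h and 667, 735 and 953 at 48 h. Replicate 2 at 0 h lay within the range of the 4 h arrays, so the groups overlapped. The log2 change of Ier3 was -0.71 ± 0.22 at 4 h (limma adjusted p = 0.706) and 0.07 ± 0.22 at 48 h (adjusted p = 0.895). Ier3 rose by 0.78 ± 0.22 from 4 to 48 h (limma adjusted p = 0.0443), and this call was lost in 14 of 25 alternatives. Leaving out any array of 24 h or 48 h ended it, as did leaving out replicate 1 of 0 h or of 12 h or replicate 1 or 3 of 4 h, with adjusted p from 0.0520 to 0.162.

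Ier5, which is known as a target of heat shock factor 1, rose late and by little. Its brightest probe set (1417612_at) read 541, 713 and 735 at 0 h, 731, 743 and 650 at 4 h, 650, 730 and 787 at 12 h, 751, 654 and 848 at 24 h and 1022, 942 and 913 at 48 h. The 48 h arrays lay above all others, and the earlier times overlapped each other. Ier5 changed by 0.53 ± 0.14 at 48 h (limma adjusted p = 0.0313). That call was lost without 0 h replicate 1 (adjusted p = 0.164), without 48 h replicate 1 (0.120), 2 (0.0663) or 3 (0.0622), with median scaling (a change of 0.43, adjusted p = 0.0940) and with only the times compared (0.0777).

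A further Ier5 probe set (1417613_at) had means of 177 ± 36.7 (SD, n = 3) at 0 h and 276 ± 33.6 at 48 h. Its groups did not overlap, but its change of 0.61 ± 0.21 did not pass (limma adjusted p = 0.105). It passed with array weights (adjusted p = 0.0476). The probe set of Ier5 below the filter had means of 43.9 ± 13.1 at 0 h, 50.5 ± 9.05 at 4 h, 57.5 ± 15.3 at 12 h, 83.8 ± 4.02 at 24 h and 75.9 ± 2.75 at 48 h and was not tested.

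Klf4, a Krüppel-like factor expressed in epithelia, vessel walls and differentiating myoblasts, had the largest rise of the 10 genes, and most of it came between 24 and 48 h. Its brighter probe set (1417394_at) read 273, 286 and 436 at 0 h, 306, 440 and 395 at 4 h, 372, 324 and 396 at 12 h, 391, 485 and 408 at 24 h and 1414, 863 and 1649 at 48 h. The other (1417395_at) read 167, 162 and 225 at 0 h, 222, 268 and 168 at 4 h, 230, 247 and 184 at 12 h, 337, 272 and 309 at 24 h and 773, 609 and 904 at 48 h. On both probe sets the 48 h arrays lay above all 12 earlier arrays, replicate 2 being the lowest of the 48 h arrays.

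The log2 change of Klf4 at 48 h was 1.91 ± 0.22 (limma adjusted p = 3.5e-05) and 1.95 ± 0.19 (adjusted p = 8.56e-06) on these probe sets, or 3.76-fold and 3.86-fold on the scale of intensity + 16. From 24 to 48 h it rose by 1.53 ± 0.22 (limma adjusted p = 0.00222) and 1.26 ± 0.19 (adjusted p = 0.00357). These 4 calls held in every alternative. At 24 h the change from 0 h was 0.38 ± 0.22 (limma adjusted p = 0.371) on the brighter and 0.69 ± 0.19 (adjusted p = 0.0465) on the dimmer probe set of Klf4. The latter call was lost in 15 of 25 alternatives, among them the runs that left out any 24 h array, replicate 1 or 2 of 0 h, or replicate 1 of 4 h, 12 h or 48 h, with adjusted p from 0.0588 to 0.168.

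Klf2, best known as a flow-responsive factor of endothelial cells, was higher at 48 h than at 0 h. It read 195, 155 and 160 at 0 h, 146, 182 and 154 at 4 h, 187, 254 and 127 at 12 h, 190, 253 and 180 at 24 h and 362, 308 and 381 at 48 h. The 48 h arrays lay above all others, and the times before 48 h overlapped. Klf2 changed by 0.98 ± 0.21 from 0 to 48 h (limma adjusted p = 0.00878), which held in every alternative, and by 0.72 ± 0.21 from 24 to 48 h (adjusted p = 0.153). Of 8 endothelial markers, 7 lay below the A array filter (Pecam1, Cdh5, Tek, Tie1, Emcn, Vwf and Nos3), and their sum with Kdr was 345 to 527 at 0 h and 395 to 527 at 48 h.

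Markers of smooth muscle and pericytes, which also express Klf2 and Klf4, were measured as well. Of 8, 7 passed the filter, Myh11 being the exception, with means of 8.69 and 13.6 on its probe sets. Rgs5 passed on its brightest probe set alone, with a mean of 122. Of the 7 tested, 4 (Tagln, Pdgfrb, Mcam and Notch3) rose both at 24 h and at 48 h, and 0 fell. Of all genes tested, 3.34% rose at 24 h and 3.9% at 48 h. The median change of the 7 was 0.80 at 24 h and 0.58 at 48 h, with 6 and 5 positive changes. Tagln rose from 1113 ± 608 (SD, n = 3) at 0 h to 3045 ± 306 at 24 h and 2221 ± 398 at 48 h. The summed intensity of the list was 12427 to 18837 at 0 h, 18562 to 19954 at 24 h and 15851 to 18239 at 48 h. Acta2, with a mean of 13259 over the A arrays, made up most of this sum, which thus says little of the other markers. Of 10 fibroblast and tendon markers on the A arrays, 7 lay below the filter (Col1a1, Dcn, Lum, Pdgfra, Tcf21, Tnmd and Fmod), and the sum was 2835 to 3237 at 0 h, 4023 to 4757 at 24 h and 4305 to 4622 at 48 h. Col3a1, a collagen of that list, made up most of the latter sum, with a mean of 3154 over the A arrays. It rose by 0.52 ± 0.12 at 24 h and by 0.57 ± 0.12 at 48 h (limma adjusted p = 0.00732). Of the 7 genes of the list tested on either array type, Col3a1 was the only 1 called at these times. The median change of the 7 was -0.06 at 24 h and -0.05 at 48 h, with 2 and 3 positive changes. On the B arrays 5 genes of the list (Tcf21, Dcn, Pdgfra, Mkx and Scx) had a probe set above the filter, with mean intensities of 835, 292, 202, 224 and 2348, and Dcn, Pdgfra and Tcf21 thus were not below it on both array types. The part of these markers in the Klf results was not tested.

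The 250 bases before the RefSeq starts of Klf2 and Klf4 (GRCm38.p6) are shown because these genes had the largest rises. Capitals mark the matches to the Egr site GCGNGGGCG, on either strand, and in Klf2 also the match to a Mef2 site, 118 to 109 bases before the start. The Egr match of Klf2 lies 199 to 191 bases before its start, and those of Klf4 lie 211 to 203 and 194 to 186 bases before it.
Klf2, chr8:72318812-72319061, plus strand: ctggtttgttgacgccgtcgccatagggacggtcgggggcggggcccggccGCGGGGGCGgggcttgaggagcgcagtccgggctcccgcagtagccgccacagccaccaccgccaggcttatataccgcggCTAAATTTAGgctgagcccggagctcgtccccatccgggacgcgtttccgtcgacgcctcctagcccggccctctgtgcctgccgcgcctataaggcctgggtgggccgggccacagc
Klf4, chr4:55532476-55532725, minus strand: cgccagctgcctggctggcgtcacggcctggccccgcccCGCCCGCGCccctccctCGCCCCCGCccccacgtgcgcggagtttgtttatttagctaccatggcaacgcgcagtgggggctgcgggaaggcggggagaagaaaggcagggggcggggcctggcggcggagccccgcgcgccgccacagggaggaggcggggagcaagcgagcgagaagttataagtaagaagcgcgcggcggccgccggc
An Egr site matched in 5.55% and a Mef2 site in 1.86% of all 32851 windows. All 3 Egr matches overlap a GC box, GGGCGG on either strand.

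Klf6, a broadly expressed factor induced by injury, had 5 probe sets. Its brightest on the A array (1433508_at) read 661, 479 and 676 at 0 h, 566, 662 and 510 at 4 h, 600, 563 and 529 at 12 h, 676, 742 and 703 at 24 h and 795, 928 and 1184 at 48 h. The 48 h arrays lay above all others. This probe set of Klf6 changed by 0.66 ± 0.16 at 48 h (limma adjusted p = 0.0193), a call lost without 0 h replicate 2 (adjusted p = 0.0898) or 48 h replicate 3 (0.103), with median scaling (a change of 0.56, adjusted p = 0.0882) and with only the times compared (0.0645). Median scaling moved the median 48 h change of all A array probe sets by -0.10, about as far as it moved the changes of Klf6 and Ier5.

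The other 4 probe sets of Klf6 were also higher at 48 h than at 0 h, but none passed. On the A array the log2 changes were 0.59 ± 0.19 (1418280_at, limma adjusted p = 0.0802) and 0.37 ± 0.20 (1427742_a_at, adjusted p = 0.336), and the former passed with the replicate block (adjusted p = 0.0384). On the B array 1447448_s_at read 813, 905 and 1080 at 0 h and 1329, 1044 and 1693 at 48 h, which overlap, with a change of 0.51 ± 0.20 (adjusted p = 0.356), and 1459718_x_at changed by 0.25 ± 0.23 (adjusted p = 0.807). Probe sets of these suffixes can bind other transcripts. Without the 0 h array of leg muscle source name, the B changes of Klf6 at 48 h were 0.42 (adjusted p = 0.590) and 0.23 (adjusted p = 0.860).

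Klf10, which is induced by TGF-beta and represses transcription, went the opposite way from the other Klf genes. It read 1716, 1555 and 1287 at 0 h, 1017, 924 and 1058 at 4 h, 818, 894 and 777 at 12 h, 715, 680 and 723 at 24 h and 907, 627 and 1034 at 48 h. All 12 later arrays lay below all 3 arrays of 0 h, and each of the 12 h and 24 h arrays lay below each of the 4 h arrays. The log2 change of Klf10 was -0.59 ± 0.16 at 4 h (limma adjusted p = 0.577), -0.85 ± 0.16 at 12 h (adjusted p = 0.0331), -1.08 ± 0.16 at 24 h (adjusted p = 0.000713) and -0.84 ± 0.16 at 48 h (adjusted p = 0.00356).

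The calls of Klf10 at 24 h and 48 h held in every alternative. The 12 h call was lost in 10 of 25, among them the runs that left out replicate 1 or 2 of 0 h or of 12 h, or replicate 1 of 24 h or of 48 h, with adjusted p from 0.0510 to 0.170. From 24 to 48 h Klf10 changed by 0.24 ± 0.16 (limma adjusted p = 0.609), which did not pass, and its 48 h arrays spread from 627 to 1034.

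**Figure D2:**
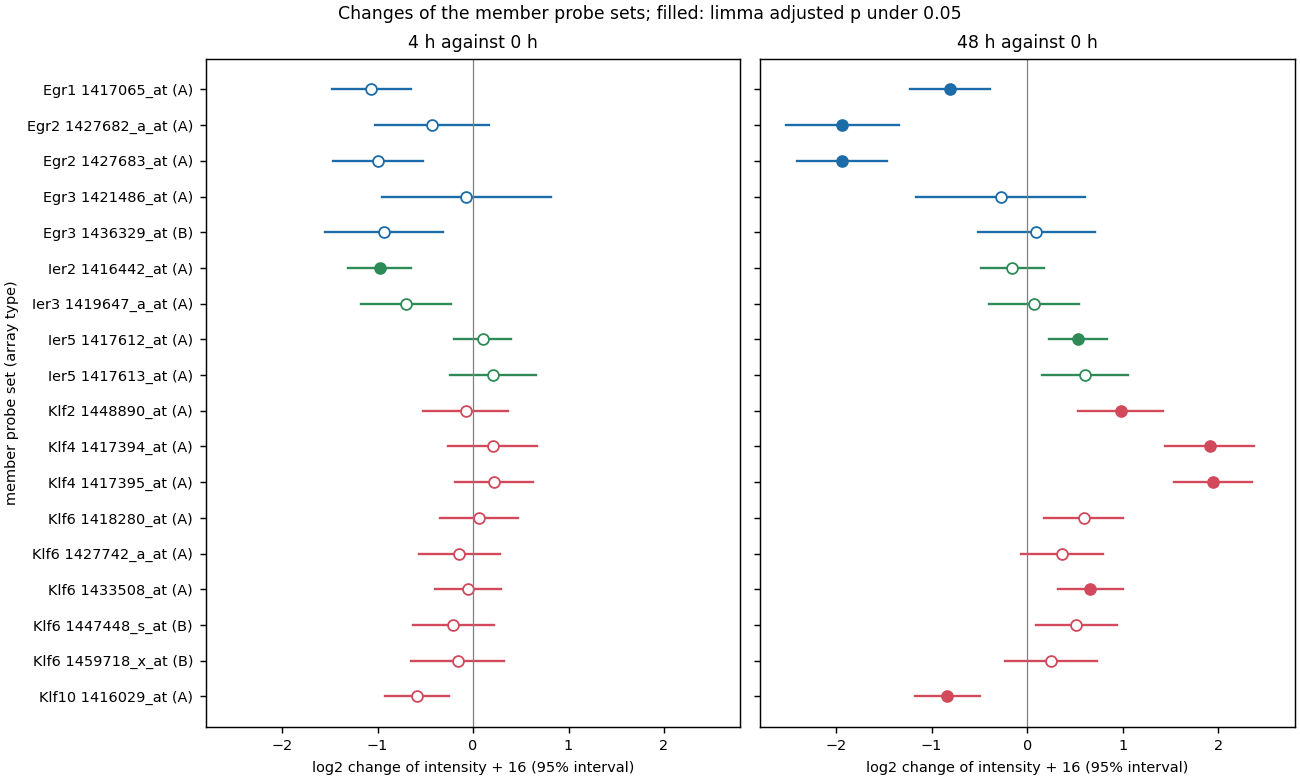
Log2 change of intensity + 16 with its 95% interval for the 18 tested probe sets, at 4 h (left) and 48 h (right) against 0 h, from limma fits on 15 arrays of each type. Filled points passed an adjusted p of 0.05. At 4 h only Ier2 is filled, while at 48 h both Egr2, Egr1 and Klf10 lie to the left and both Klf4, Klf2, 1 of 5 Klf6 and 1 of 2 tested Ier5 probe sets to the right.

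At 4 h against 0 h, 1 of the 15 members tested on the A arrays was called lower and 0 higher, against 0.0295% and 0% of all 13577 A array probe sets. At an unadjusted p under 0.05, 5 of 15 were lower and 0 higher at 4 h, against 2.77% and 3.25% of all. At 12 h 1 was called lower (Klf10) and 0 higher, against 0.118% and 0.25%. At 24 h, 1 of 15 was called higher and 3 of 15 lower, against 3.23% and 2.33%. At 48 h, 5 of 15 were called higher and 4 of 15 lower, against 4.2% and 2.5% of all. The members were chosen with earlier results of these data known, and Egr2 and Klf4 are each counted with both probe sets. These shares are thus a description alone. With median scaling the split of all 48 h calls turned from 570 higher and 339 lower to 340 higher and 457 lower, and that of the members went to 3 higher and 4 lower. The split also moved at 12 h, from 34 higher and 16 lower to 1 and 3. By gene, 4 of 10 rose and 3 of 10 fell at 48 h, against 3.9% and 2.22% of all 12542 genes tested. A gene was called where any of its probe sets was. Klf6 and Ier5 were each called on 1 probe set of several, and both calls were lost with median scaling. The 4 comparisons share the 0 h arrays, so their counts are not independent.

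On the B arrays limma called 0 of the 3 members at 4, 12, 24 and 48 h against 0 h, where it called 0%, 0.074%, 0.97% and 0.933% of all 13506 probe sets tested. Under an unadjusted p of 0.05 there were 1, 0, 0 and 1 of 3 members, against 5.17%, 8.12%, 10.3% and 10.3% of all.

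Over time, limma's F-test called 9 of the 15 A array members, against 7.59% of all. These were both Egr2 and both Klf4 probe sets, Egr1, Ier2, Klf2, Klf10 and Klf6 (1433508_at). On the B arrays it called 0 of 3, against 1.02% of all, and 2 of 3 had an unadjusted p under 0.05, against 10% of all. The adjusted p of the B array members was 0.365 for Egr3 and 0.402 and 0.871 for Klf6. Without the 0 h array of leg muscle source name limma's adjusted p was 0.485 for Egr3 and 0.455 and 0.885 for Klf6.

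Groups that did not overlap were counted as well. At 4 h the 3 arrays lay below all 0 h arrays for 4 of 15 A array members, against 6.05% of all, and above them for 0, against 6.12%. At 48 h they lay above for 7 of 15, against 13.5%, and below for 4 of 15, against 10.5%. The median change of the 15 members was -0.08 at 4 h and 0.37 at 48 h, where that of all A array probe sets was 0.01 and 0.02.

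Changes between successive times were compared too. From 4 to 12 h and from 12 to 24 h limma called 0 of 15 A array members, against 0.295% and 0.0884% of all, and 1 of 15 had an unadjusted p under 0.05 in each, against 11.5% and 7.09%. From 24 to 48 h it called 2 of 15 A array members, both Klf4 probe sets, higher and 0 lower, against 0.545% and 0.081% of all. At an unadjusted p under 0.05, 6 of 15 were higher and 2 of 15 lower from 24 to 48 h, against 6.83% and 4.55% of all. From 4 to 48 h, the comparison added after the values had been seen, it called 6 of 15 higher and 2 of 15 lower, against 3.98% and 2.72%. With median scaling the calls over all went from 541 higher and 369 lower to 337 and 383 from 4 to 48 h, and from 74 and 11 to 39 and 16 from 24 to 48 h. Without median scaling, the members called higher from 4 to 48 h were both Klf4 probe sets, Klf2, Klf6, Ier2 and Ier3, and those called lower were the Egr2 probe sets. On the B arrays 0 of 3 were called from 4 to 12, 12 to 24, 24 to 48 and 4 to 48 h, against 0.0074%, 0%, 0.0666% and 0.755% of all. With an unadjusted p under 0.05 there were 1, 0, 1 and 2 of 3, against 7.62%, 4.19%, 6% and 10% of all.

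The calls from 4 to 48 h held in every alternative that tested them for Klf4, Klf2, Ier2 and the dimmer Egr2 probe set. For the brighter Egr2 probe set (-0.94 ± 0.22, limma adjusted p = 0.0175) the call was lost without 4 h replicate 1 (adjusted p = 0.0690) or 3 (0.0807) and without 48 h replicate 1 (0.0542) or 2 (0.0810). For Klf6 (0.72 ± 0.16, limma adjusted p = 0.0134) it was lost without 4 h replicate 1 (adjusted p = 0.0557), 4 h replicate 3 (0.0698) or 48 h replicate 3 (0.0665).

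**Figure D3:**
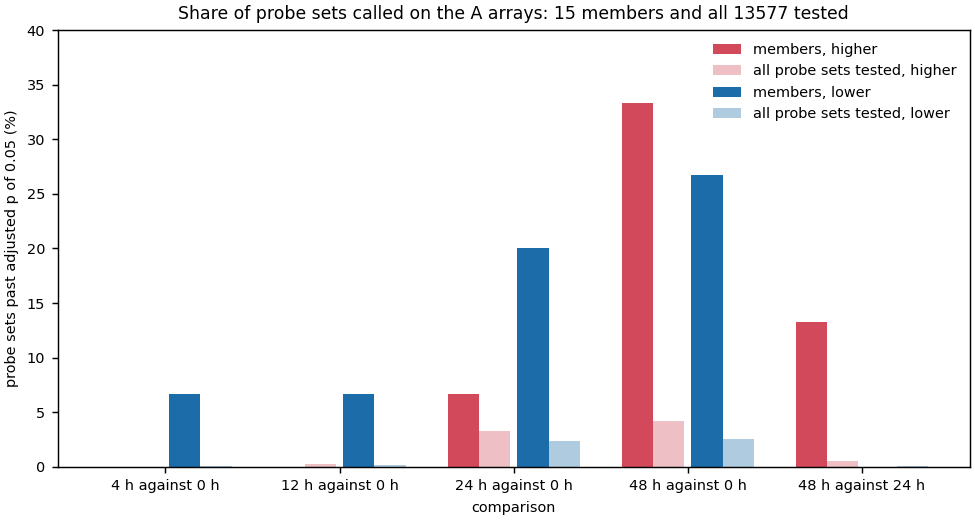
Share in percent of A array probe sets past an adjusted p of 0.05, for the 15 members (dark bars) and all 13577 probe sets tested (pale bars), higher in red and lower in blue, for 5 comparisons. At 48 h against 0 h the members reach 33.3% higher and 26.7% lower, against 4.2% and 2.5% of all probe sets.

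Of other immediate early genes, more were called lower than higher at 4 h and at 48 h against 0 h. Those called higher at 48 h were Atf3 and Plk2 alone. As the background for counts of genes, 12542 genes were tested on either array type, of which limma called 0% higher and 0.0239% lower at 4 h, 3.34% and 1.99% at 24 h and 3.9% and 2.22% at 48 h, a gene being called where any of its probe sets was. Of 10 tested genes for AP-1 and related transcription factors, Fos alone fell at 4 h, from 430 ± 103 (SD, n = 3) to 148 ± 27.5 (log2 change -1.43 ± 0.22, limma adjusted p = 0.0311). At 48 h Fos (-0.82 ± 0.22), Jun (-0.52 ± 0.11) and Junb (-0.94 ± 0.14) fell, and Atf3, a stress-induced repressor, rose from 27.7 ± 26.0 to 579 ± 168. The 0 h mean of Atf3 lay below the filter of either array type, so it was tested only because later arrays were higher. The median of the 10 was -0.36 at 4 h and 0.25 at 48 h.

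Of 21 tested further immediate early genes, which encode feedback inhibitors, phosphatases and secreted factors, 0 rose and 1 fell at 4 h, and 1 rose and 4 fell at 48 h. Errfi1, an inhibitor of the EGF receptor, fell at both times, from 2296 ± 622 (SD, n = 3) at 0 h to 739 ± 119 at 4 h and 1086 ± 291 at 48 h. Spry2 (-0.66 ± 0.13), Trib1 (-1.14 ± 0.31) and the B array probe set of Dusp4 (-0.86 ± 0.16) fell at 48 h, and Plk2 (0.38 ± 0.11) rose. Without the 0 h B array of leg muscle source name, Dusp4 changed by -0.80 (limma adjusted p = 0.0862) and its call was lost. Spry2 and Dusp4 encode feedback inhibitors of ERK signalling.

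Among 13 tested genes upstream of the members (serum response factor, its partners, Mef2 factors and kinases), 2 rose at 24 h (Elk1 and Mef2c) and 1 at 48 h, and 0 fell at either time. The gene that rose at 48 h was Mef2c, all 5 of whose probe sets rose, by 0.76 to 1.09. The Mef2c probe set with the smallest SE went from 1413 ± 110 (SD, n = 3) at 0 h to 2475 ± 288 at 12 h, 3187 ± 700 at 24 h and 2890 ± 223 at 48 h. Nab1 and Nab2, which encode corepressors of Egr proteins, did not pass. At 48 h Nab2 changed by 0.30 ± 0.19 (limma adjusted p = 0.402) and the brighter Nab1 probe set by -0.15 ± 0.20 (adjusted p = 0.728).

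Of 10 other tested Klf and Sp genes, 2 rose and 0 fell at 48 h, where of the members Klf2, Klf4 and Klf6 rose and Klf10 fell. Klf9, a glucocorticoid-responsive gene, changed by 0.80 ± 0.17 and 1.74 ± 0.43 on its tested probe sets. Klf3 changed by 0.75 ± 0.17 and 0.49 ± 0.14 on A array probe sets and by 0.95 ± 0.17 on the B array, where it went from 4122 ± 466 (SD, n = 3) to 7972 ± 912. Without the 0 h array of leg muscle source name the B array change of Klf3 was 0.86 (limma adjusted p = 0.0580) and did not pass. The median over the 10 was 0.18 at 48 h.

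Courses over the 15 A arrays were compared by Pearson's r of log2 intensities. This is a description, since arrays of a time share its mean. Among probe sets of the same gene, r was 0.94 for Klf4, 0.80 for Egr2, 0.82 for Ier5 and 0.63 to 0.79 for the 3 of Klf6. Between genes the highest values were 0.89 for Klf4 with Klf6 and 0.88 for Klf4 with Klf2, followed by 0.84 for further probe set pairings of Klf4 with Klf6 and 0.83 for Ier2 with Ier3. The lowest was -0.82 for Egr2 with Ier5, and Egr2 with Klf4 gave -0.77.

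Outside the 10 genes, the course of Egr1 was most like that of Fos (r = 0.83), Hsph1 (0.80) and Ctnnbl1 (0.80), that of Egr2 like Slc25a5 (0.88), Ahsa2 (0.88) and Jun (0.86), and that of Ier2 like Hbegf (0.90), Fgd3 (0.84) and Atad3a (0.83). Hbegf, an EGF receptor ligand, had means of 819 at 0 h, 398 at 4 h and 701 at 48 h. Klf10 was most like Nfkb2 (0.89), Tfrc (0.86) and Lrpprc (0.86), and Nfkb2, an NF-kB subunit, went from 602 at 0 h to 222 at 24 h and 306 at 48 h.

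Klf4 was most like Gnpnat1 (r = 0.95), Steap1 (0.95) and Ero1a (0.95), Klf6 like Tars (0.90), Gnpnat1 (0.89) and Ccnd2 (0.88), and Klf2 like Mib2 (0.92), Nars (0.92) and Ppp1r15a (0.92). Ppp1r15a, which encodes the stress-induced subunit of an eIF2-alpha phosphatase, had means of 357 at 0 h, 435 at 24 h and 1712 at 48 h. Ero1a, an oxidase of the endoplasmic reticulum, went from 391 at 0 h to 975 at 48 h. Tars and Nars are cytosolic tRNA synthetases, and their means were 1194 and 3710 at 0 h and 2124 and 5865 at 48 h.

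Promoter windows were searched on both strands for 8 motifs in 6 of the 10 genes (Egr2, Ier3, Ier5, Klf2, Klf4 and Klf6, with 10 windows). Egr1, Egr3, Ier2 and Klf10 were not searched, so nothing is known here of their motifs. Of the 6 genes searched, a CArG box matched in Egr2 alone, an Egr site in Klf2 and Klf4, and a Mef2 site in Klf2. A GC box, GGGCGG, matched in all 6 genes and in 7 of 10 windows, against 35.7% of all windows. The CRE TGACGTCA, the AP-1 site TGANTCA, the Ets site CCGGAAGT and the motif TATAAA matched in 0 of 10 windows, against 1.79%, 7.81%, 3.89% and 13.6% of all. No match says only that these letters are not in the window of 250 bases before to 50 bases after a start.

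**Figure D4:**
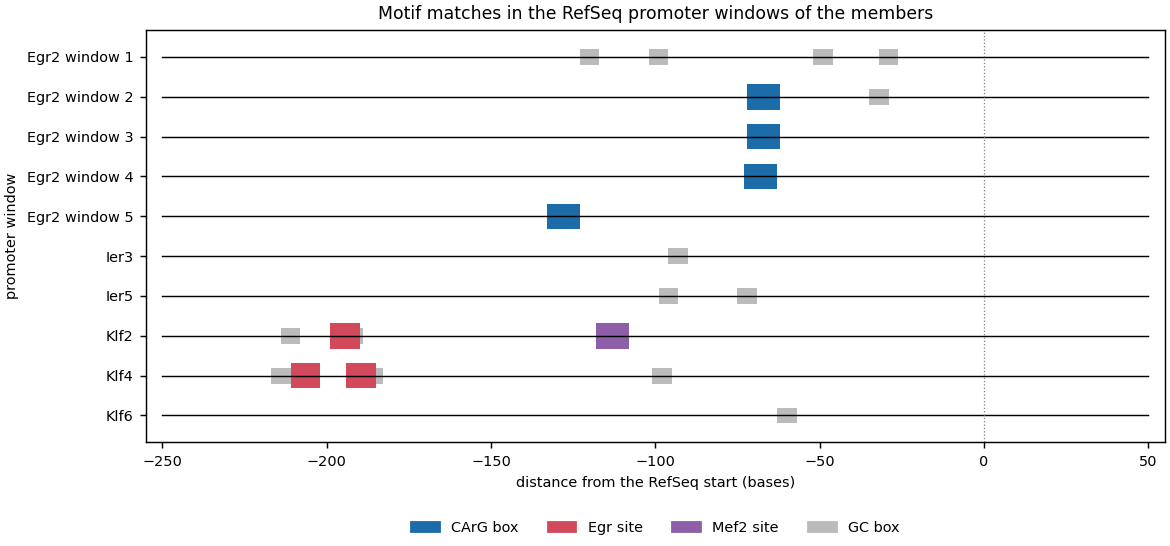
Position of motif matches on either strand in the 10 RefSeq promoter windows of 6 genes, in bases from the start (dotted line), with coloured blocks for the CArG box, Egr site, Mef2 site and GC box. The CArG blocks of 4 of 5 Egr2 windows lie before the start, and Klf2 and Klf4 carry the Egr blocks.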

How the data were processed

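The measurements are Affymetrix A and B array signals of total RNA, made per the labels by the maker's standard protocol. The authors deposited linear intensities, 1 per probe set. The mean without the lowest and highest 2% was 500.2 in each A column and 500.1 in each B column, so each array had been scaled to it, and changes are relative to the array. Software, background correction and detection calls: not given in the sources used here.

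From the deposited intensities, log2(intensity + 16) was taken, which understates changes of dim probe sets. Controls (64 per type) and probe sets with a mean under the 40th percentile (101 on A, 199.6 on B) were dropped. In limma 3.58.1 (R 4.3.3, lmFit and eBayes with an intensity trend), 1 mean per time was fitted to the 15 arrays of a type (10 residual degrees of freedom), and Benjamini-Hochberg adjustment was applied per comparison at 0.05. The median SE of a log2 change was 0.179 (A) and 0.266 (B), and precision is limited by array number. The fit was tested on simulated data.

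Comparisons were each time with 0 h and with the time before it. The comparison of 48 h with 4 h was added after values were seen. Symbols came from the platform annotation and promoters from RefSeq. The members and gene lists were chosen with earlier results of these data known. Other genes named are the 3 most correlated with each member past the F-test and up to 4 per list that passed at 4 h or 48 h. Genes outside that rule were named after their values were seen. These are Nab1, Nab2, Hoxa10, Elk1, Col3a1, Acta2 and Myh3, further genes of counts of 5 or fewer, such as those of the other immediate early genes, and markers listed by the filter. Alternatives were quantile normalization, median scaling, pseudocounts of 1 and 64, no filter or the 60th percentile, no intensity trend, array weights, the replicate number as a block, fits of the compared times alone, and single arrays left out. Plots were made with matplotlib 3.10.9.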

Additional observations from a re-analysis of the deposited data

How the results depend on the processing

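Of 25 called changes of the members, none changed sign in any alternative, and 15 were called in all of them. Of 57 changes against 0 h not called, 5 were called in some alternative. At 4 h against 0 h the count of member probe sets called was 1, and 0 with median scaling, no filter, no intensity trend, the replicate block or only the times compared, and 2 with array weights. At 12 h it was 1, and 0 with median scaling, no filter, no intensity trend or only the times compared, and 2 with array weights. From 4 to 12 h it was 0, and 1 with array weights, and from 24 to 48 h it was 2, and 5 with array weights. With 1 array left out the counts ranged from 0 to 1 at 4 h, 0 to 1 at 12 h, 2 to 5 at 24 h (main count 4, the 2 without A 24 h replicate 2), 6 to 9 at 48 h (9) and, for 48 h against 4 h, 5 to 9 (8, the 5 without A 4 h replicate 1 or 3). The F-test count of 9 ranged from 7 to 10 with 1 array left out and from 7 to 13 over the other settings. The causes were not tested. Median scaling moved the median 48 h change of all A probe sets from 0.02 to -0.08, and the 48 h changes of Klf2 (0.88), Klf4 (1.81 and 1.85), Egr1 (-0.92) and Klf10 (-0.94) by about as much; these stayed called. With the replicate number as a block, 0 member probe sets passed at 4 h. Arrays of the same number did not deviate together on average, with mean r 0.005 on the A arrays (-0.364 to 0.421) and -0.004 on the B arrays. Of the arrays, 7 of 15 A and 3 of 15 B correlated best with their own number. The numbers were not treated as pairs, but the averages cannot show whether some arrays shared a preparation. Dim probe sets, such as that of Egr3 on the A array, have wide intervals.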
